A study of Mus musculus with 12 samples.

Results

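The 5 miRNA loci mmu-mir-6236, mmu-mir-6240, mmu-mir-5099, mmu-mir-5110 and mmu-mir-5121, which were selected on high counts in their precursor rows, were followed in small RNA libraries of early mouse endoderm and pancreatic progenitors. Every row of the count table with one of these names was taken, which gave 9 of 1053 rows: 4 mature rows (miR-6240, miR-5099, miR-5110 and miR-5121) and 5 precursor rows. A mature row counts reads assigned to the processed arm, and a precursor row (written with a lower-case r) counts reads assigned to the hairpin. How the pipeline divides reads between them is not given in the sources used here. Because precursor counts chose these loci, shares of counts and precursor against mature counts are given as a description without a test. The E9.5 level of mir-6236 and mir-6240 was also known when they were picked and carries no test, and the other stage comparisons of single rows are tested.

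The 12 libraries came from fluorescence-sorted, tdTomato-positive mouse embryonic cells at 4 stages, with 3 libraries a stage. At E8.5 the cells carried Foxa2-CreER and tdTomato, and labelled endoderm was sorted from whole embryos after tamoxifen was given to the mother. At the 3 later stages, E9.5 to E11.5, they carried Pdx1-Cre and tdTomato, and were sorted from the embryonic trunk, so that other Pdx1-lineage cells of the trunk could be included. Per the methods of the study, the sires of these crosses also carried a mir-302 allele replaced by eGFP, which the sample labels do not mention. Driver and dissected region both changed between E8.5 and the later stages. In any comparison with E8.5, driver, region and stage therefore cannot be told apart. The library names carried a different number at each stage. Whether that number marks a batch is not stated, and it cannot be told apart from stage in any comparison. No label said that the libraries of a stage came from separate litters, and the p-values therefore measure the spread between these libraries.

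A canonical miRNA is made in steps. Drosha cuts a hairpin out of a longer transcript, Dicer cuts the hairpin into a short duplex, and Argonaute keeps one arm, whose seed pairs with target mRNAs, so that small RNA reads of a well-processed locus lie mostly on its arms. Small RNA libraries also capture pieces of abundant structured RNAs such as ribosomal, transfer and small nucleolar RNAs, and some loci entered in miRNA catalogues from deep sequencing have been disputed for that reason. Little is established about the targets of these loci.

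The mature arms are shown first because their length and position bear on what a read in these rows can be. Mature sequences of 4 of the 5 loci were found in RefSeq on GRCm38.p6, printed 5′ to 3′ with the seed, bases 2 to 8, in capitals.
miR-6236: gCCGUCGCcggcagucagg
miR-6240: cCAAAGCAucgcgaaggcccacggcg
miR-5110: gGAGGAGGuagagggugguggaauu
miR-5121: aGCUUGUGaugagacaucucc
The miR-6236 arm had 19 bases and 78.9% G and C, a GC content that 1.19% of the 1679 mature sequences in the table reached or passed (median 52.2%). The miR-6240 arm had 26 bases and the miR-5110 arm 25, where the median was 22 and 2.44% of mature sequences had 25 bases or more. The miR-5121 arm, at 21 bases, was of ordinary length. No 2 of the 4 arms shared a seed. The seed of miR-6240 was also that of miR-330-3p and the seed of miR-5110 that of miR-7081-5p, while those of miR-6236 and miR-5121 occurred in no other mature sequence of the table.

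Hairpins of 4 loci were found, and are shown with the mature arm in capitals. No mature arm was found for miR-5099 and no hairpin for Mir6236.
Mir6240: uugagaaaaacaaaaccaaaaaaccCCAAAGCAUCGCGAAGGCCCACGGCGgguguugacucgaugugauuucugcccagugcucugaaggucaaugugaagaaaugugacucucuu
Mir5110: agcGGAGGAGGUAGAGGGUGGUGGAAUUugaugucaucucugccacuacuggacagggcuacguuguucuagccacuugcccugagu
Mir5121: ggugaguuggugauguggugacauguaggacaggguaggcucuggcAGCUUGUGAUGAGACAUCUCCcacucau
Mir5099: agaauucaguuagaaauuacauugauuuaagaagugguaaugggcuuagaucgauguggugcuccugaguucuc
The Mir6240 hairpin, at 117 bases, was longer than the median of 79 bases over 1005 hairpins. RNAfold gave it a lowest folding energy of -24.7 kcal/mol, or -0.211 kcal/mol per base, and 14 of the 1005 hairpins (1.39%) folded more weakly per base. The other 3 hairpins folded nearer to the median of -0.406 kcal/mol per base, with Mir5099 at -0.359, Mir5121 at -0.343 and Mir5110 at -0.321, where 30.8%, 25.8% and 17.9% of hairpins folded more weakly. Mir5110, at 87 bases, was also longer than the median, and Mir5099 and Mir5121 had 74 bases each.

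The loci lay on 5 chromosomes of GRCm38. Mir6236 (chr9:110281287-110281409, plus strand) overlapped no other gene in GENCODE and lay inside the long noncoding RNA gene Gm39429 in RefSeq. Mir6240 (chr5:114851948-114852064, plus strand) lay between genes, 1600 bases from 4930519G04Rik. Mir5099 (chr12:36816205-36816278, plus strand) was also between genes, and its nearest neighbour, Gm40394, was 61687 bases away. Mir5110 (chr11:85760616-85760702, minus strand) lay within an intron of Bcas3, on the strand opposite to that gene. Mir5121 (chr7:45126918-45126991, minus strand) lay within Rpl13a, which encodes a protein of the large ribosomal subunit, and overlapped Snord33, a box C/D small nucleolar RNA gene that guides 2′-O-methylation of ribosomal RNA. All 21 bases of the miR-5121 arm fell inside the 84-base Snord33, at its bases 3 to 23, and 30 of the 74 hairpin bases did. In a search of 141767 annotated transcripts, the arm of miR-5121 was found in Snord33 and in a retained-intron transcript of Rpl13a, and the arms of miR-6236, miR-6240 and miR-5110 in none but their own. Reads of miR-5121 and Snord33 cannot be told apart by sequence over these 21 bases. Whether any of the sequences match ribosomal or transfer RNA was not analysed here.

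The precursor rows of mir-6236 and mir-6240 held 86.3% of the counts of the 9 rows, and 38.6% (E11.5 replicate 1) to 99.2% (E10.5 replicate 2) of them in single libraries. mir-6236 collected 75446 counts over the 12 libraries and mir-6240 collected 20036, of 110696 in the 9 rows. The table listed no mature row for miR-6236, so that all of its counts were precursor counts. The mature row of miR-6240 held 6 counts, all in E9.5 replicate 3, and 0 in each of the other 11 libraries. A count of 0 allows a share of up to 0.000272% in the deepest of those libraries and 0.00468% in the shallowest. Only reads of 17 to 35 bases (17 to 36 in 2 libraries) were kept, so that counts in a precursor row were short reads and not full hairpins.

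mir-6236 took 11.2%, 10.7% and 22.3% of the counts of the 3 E9.5 libraries. At E8.5 it took 1.38%, 1.86% and 0.861%. The E10.5 libraries had 1.49%, 1.85% and 2.36%, and the E11.5 libraries 0.314%, 0.661% and 0.885%. The E9.5 libraries stood above the other 9, and the highest share outside E9.5 was 2.36%. mir-6236 was the row with the most counts in all 3 E9.5 libraries, and it ranked from 6 to 62 in the others. The 95% Clopper-Pearson interval of the share in E9.5 replicate 3 was 21.96% to 22.7%, which covers counting error only and was far narrower than the spread between libraries.

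mir-6240 followed the same order of stages at a lower level. Its share was 1.53%, 3.30% and 6.02% at E9.5, against 0.460%, 0.418% and 0.299% at E8.5. The share was 0.539%, 1.02% and 0.744% in the E10.5 libraries, and 0.112%, 0.0765% and 0.175% in those of E11.5. No library of another stage reached the lowest E9.5 value. The ratio of mir-6236 to mir-6240 counts nevertheless varied from 1.81 in E10.5 replicate 2 to 8.65 in E11.5 replicate 2, and was 7.30, 3.24 and 3.71 at E9.5, so that the rows were not in a fixed proportion. Over the 12 libraries their log2(CPM + 1) values had a Pearson r of 0.95 and a Spearman rho of 0.97. This is a description, since the libraries fall into stages and share their totals between the rows.

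**Figure D1:**
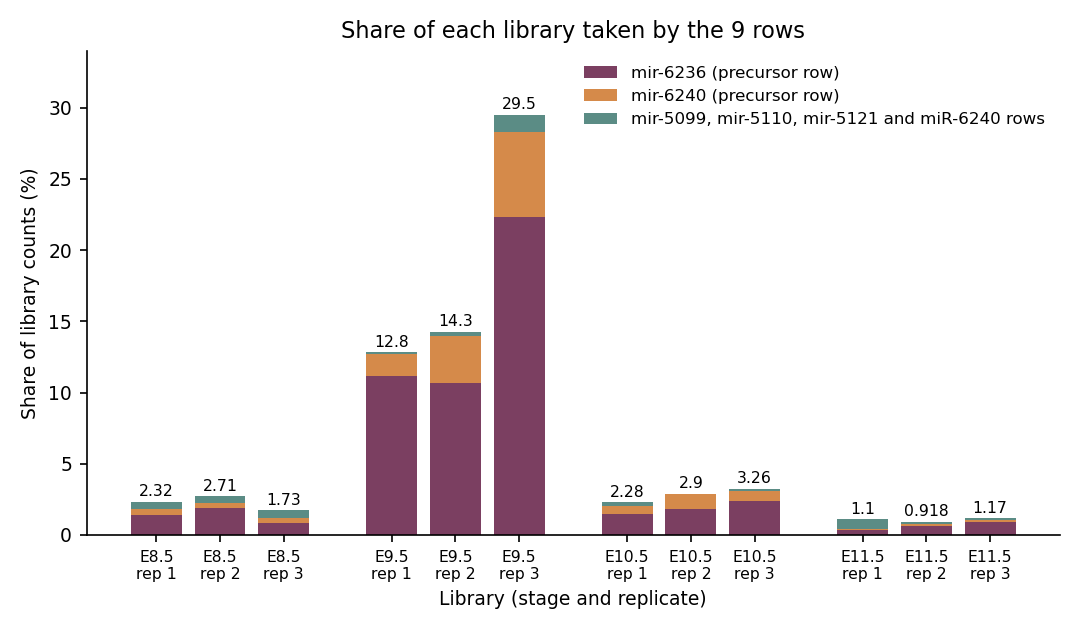
Stacked bars give the share of each library's counts (%, linear axis from 0) taken by mir-6236, mir-6240 and the remaining 7 rows, for 3 libraries at each of 4 stages, with the sum printed above. The E9.5 libraries reached 12.8%, 14.3% and 29.5%, and the other 9 libraries lay between 0.918% and 3.26%.

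The 9 rows together took 18.8% ± 9.24 of counts at E9.5 (SD, n = 3), against 2.25% ± 0.493 at E8.5. Later they took 2.81% ± 0.492 (E10.5) and 1.06% ± 0.129 (E11.5). Of the counts outside the 9 rows, the other precursor rows took 8.77% ± 0.418 at E8.5 and 9.23% ± 0.389 at E9.5, then 10.6% ± 0.599 (E10.5) and 9.49% ± 0.200 (E11.5). The most abundant of them at every stage was mir-183, a hairpin of a sensory and epithelial miRNA cluster, with 0.905% ± 0.355 of all counts at E9.5 and 2.67% at E11.5. When the 9 rows were left out, the share of every other row grew by a factor of 1.42 in E9.5 replicate 3, of 1.15 and 1.17 in E9.5 replicates 1 and 2, and of 1.01 to 1.03 in the other 9 libraries. A share of total counts of any other miRNA in the E9.5 libraries was lowered by that factor.

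The E9.5 libraries were also the shallowest. They held 64144, 80075 and 53996 counts, where the others held 133435 to 1103383, a range of 20.4 times from lowest to highest. The counts of mir-6236 did not follow these totals. They were 7160, 8567 and 12046 at E9.5 and 7168, 7179 and 5114 at E8.5. The E10.5 libraries had 4005, 2468 and 5682, and the E11.5 libraries 1313, 7298 and 7446. E9.5 replicate 3, the library with the lowest total, had the highest count, and E11.5 replicate 1, with a total of 417743, had the lowest. In absolute counts the E9.5 libraries thus overlapped those of E8.5 and of E11.5.

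The counts of mir-6240 varied over a similar range. They were 2390, 1612 and 1779 at E8.5 and 981, 2641 and 3249 at E9.5. The E10.5 libraries had 1444, 1366 and 1793, and the E11.5 libraries 466, 844 and 1471. From the lowest to the highest library they spanned 6.97 times, and those of mir-6236 spanned 9.17 times. Of 107 rows with at least 10 counts in every library, the median span was 70.2 times, and mir-6240 and mir-6236 had the 2nd and 5th narrowest. The others among the narrowest 5 were miR-21a-5p (6.91 times), miR-23a-3p (7.89 times) and let-7b-5p (7.95 times), which are mature rows, so a narrow span was not particular to precursor rows.

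**Figure D2:**
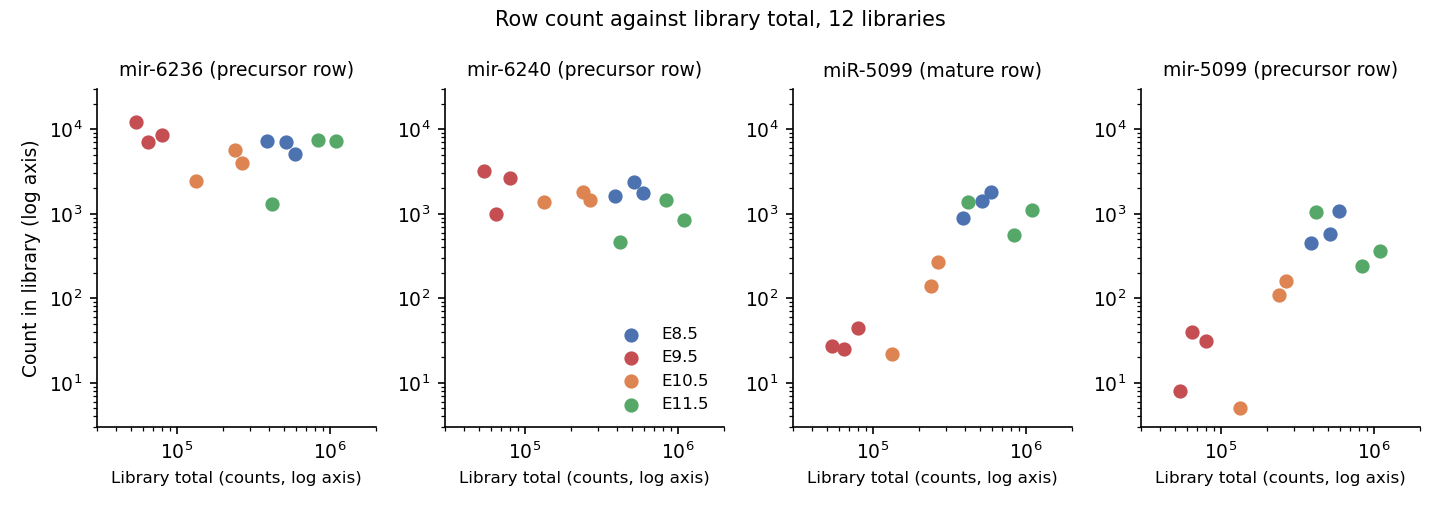
Each point is 1 of 12 libraries, with the library total on the x axis and the count of the row on the y axis (both log axes, in counts) and stage by colour. The counts of mir-6236 and mir-6240 stayed within 9.17 and 6.97 times of each other while totals spanned 20.4 times, and those of miR-5099 (22 to 1831) and mir-5099 (5 to 1084) were lowest in the libraries with low totals.

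The rows of mir-5099 behaved otherwise. miR-5099 had 1399, 903 and 1831 counts at E8.5 and 25, 44 and 27 at E9.5. Its counts were 272, 22 and 138 in the E10.5 libraries and 1375, 1121 and 556 in those of E11.5. Its E9.5 shares, 0.0390% to 0.0549%, were all below the E8.5 shares of 0.234% to 0.308%. The precursor row mir-5099 had 580, 446 and 1084 counts at E8.5 and 40, 31 and 8 at E9.5. Its later counts were 162, 5 and 108 (E10.5) and 1062, 361 and 241 (E11.5). Both rows were high at E8.5 and in E11.5 replicate 1, whose shares of 0.329% for miR-5099 and 0.254% for mir-5099 were the highest of all 12 libraries. E11.5 replicate 1 was also the library with the lowest count of mir-6236.

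The rows of mir-5110 and mir-5121 were low and uneven. mir-5110 had 147, 171 and 197 counts at E8.5 and 0, 77 and 470 at E9.5, followed by 92, 1 and 16 (E10.5) and 21, 332 and 22 (E11.5). One library, E9.5 replicate 3, therefore held most of the E9.5 counts, and another of the same stage held none. Its mature row miR-5110 had 167, 16 and 44 counts at E8.5 and 3, 32 and 106 at E9.5, followed by 25, 0 and 91 (E10.5) and 67, 53 and 35 (E11.5). miR-5121 had 105, 77 and 136 counts at E8.5, and its later libraries ranged over 0 to 16 (E9.5), 0 to 56 (E10.5) and 13 to 105 (E11.5). mir-5121 had 41 to 122 counts at E8.5, and then ranged over 2 to 9 (E9.5), 1 to 62 (E10.5) and 18 to 195 (E11.5). The highest counts of mir-5121, 195, and of its mature row after E8.5, 105, were both in E11.5 replicate 1.

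The precursor share, precursor counts as a percent of precursor plus mature counts, separated the loci. It was 99.97% for mir-6240, 70.8% for mir-5110, 49.7% for mir-5121 and 34.9% for mir-5099, with all libraries summed. For comparison, numbered copies of a name, such as mir-7a-1 and mir-7a-2, were summed and counted as 1 locus, because such copies can share a mature arm, and 37 of the other loci were sums of this kind. Over 295 other loci with both kinds of row and at least 100 counts, the median was 7.31% and the quartiles 2.94% and 22.0%, and 29 loci (9.83%) lay above 50%. None of the 295 lay above mir-6240, 12 lay above mir-5110, 29 above mir-5121 and 48 above mir-5099. The mature row of mir-5099 thus held more counts (7713) than its precursor row (4128), and those of mir-5121 were nearly equal (594 and 588). Precursor counts were not the majority at either locus, though both shares lay above the upper quartile of the other loci.

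Single libraries varied widely around these values. Among libraries with at least 10 counts at the locus, the precursor share of mir-5110 ran from 14.95% in E10.5 replicate 3 to 91.4% in E8.5 replicate 2, and passed 50% in 6 of 10. That of mir-5121 ran from 20.0% to 65.0% and passed 50% in 5 of 9. That of mir-5099 ran from 18.5% to 61.5% and passed 50% only in E9.5 replicate 1. For mir-6240 the lowest value was 99.8%.

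**Figure D3:**
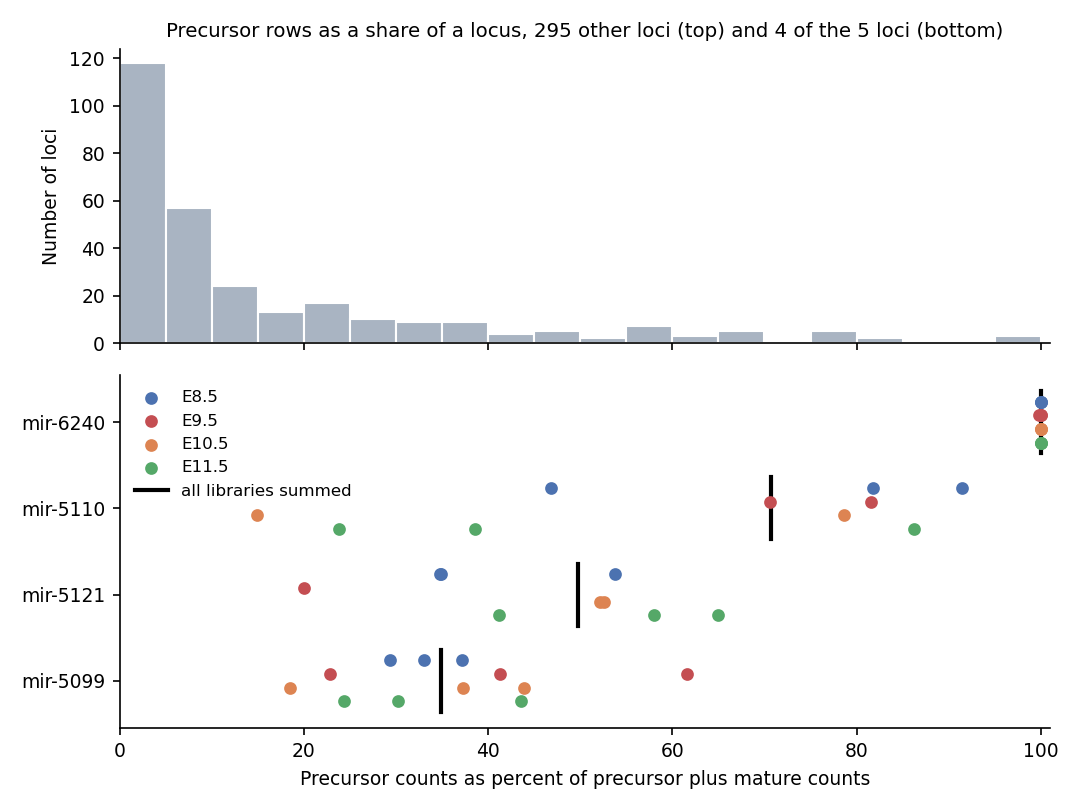
The top panel is a histogram (number of loci, bins of 5 percentage points) of the precursor share of 295 other loci, and the bottom panel gives the same share for 4 loci in each library with at least 10 counts, coloured by stage, with a black line for all libraries summed. mir-6240 sat near 100%, whereas the libraries of mir-5110 ran from 14.95% to 91.4% with no stage apart from the others.

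Stages were compared with edgeR's quasi-likelihood test over all 571 rows that passed the filter on low counts, of which 8 were rows of these loci. The mature row of miR-6240 did not pass. Levels are CPM, counts scaled to a common TMM-normalised library size, and adjusted p-values are Benjamini-Hochberg values over the 571 rows from edgeR.

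Between E8.5 endoderm and E9.5 Pdx1-Cre cells, mir-6236 went from 12759 ± 5595 to 170820 ± 116490 CPM (SD, n = 3), and the fitted log2 fold change was 3.74 (SE 0.43). mir-6240 went from 3617 ± 911 to 42094 ± 35216 CPM, with a log2 fold change of 3.54 (SE 0.52). For both rows each E9.5 library was higher than each E8.5 library, as it was for 6.83% of all rows, and the median log2 fold change over all 571 rows was -0.84. Without E9.5 replicate 3 the change of mir-6236 was 3.03 and that of mir-6240 was 2.60. Of the other 6 rows fitted, 0 were called at an adjusted p under 0.05 by edgeR, against a background of 5.60% of all rows. Of these, 2 had an unadjusted p under 0.05, and DESeq2 called 2 and limma voom 0.

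Among those 6 rows, miR-5099 came nearest to a call with a lower level. Its mean was 2462 ± 160 CPM in E8.5 libraries and 519.6 ± 145 CPM in E9.5 libraries, which the fit gave as a log2 change of -2.25 (SE 0.84, adjusted p 0.130). Each E9.5 library was lower than each E8.5 library, a separation that 27.5% of all rows showed in that direction. mir-5099 had a change of -1.65 (SE 1.07, adjusted p 0.359), with the same separation. So did miR-5121, at low counts, with a change of -0.95 (SE 1.83, adjusted p 0.761). The libraries of mir-5121 overlapped, and its change was -0.82 (SE 1.71, adjusted p 0.777). mir-5110 had a change of 3.69 (SE 1.51, adjusted p 0.191), which depended on 1 library, E9.5 replicate 3. It fell under the threshold with DESeq2 (adjusted p 0.0162), with no filter on low counts (0.00895) and without E9.5 replicate 1 (0.0158), and reached 0.945 with limma voom. Without E9.5 replicate 3 the change was 0.32. miR-5110 had a change of 2.95 (SE 1.58, adjusted p 0.271) and overlapping libraries. DESeq2 called it (adjusted p 0.0405), and without E9.5 replicate 3 its change was 0.54.

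From E9.5 to E10.5, within Pdx1-Cre cells of the trunk, mir-6236 went to 19533 ± 3728 CPM, with a log2 change of -3.13 (SE 0.42). mir-6240 went to 8075 ± 3258 CPM, a change of -2.38 (SE 0.49). No E10.5 library reached the lowest E9.5 library for either row, a separation shown by 7.01% of all rows. Without E9.5 replicate 3 these changes were -2.39 and -1.41. Of the other 6 rows, 0 were called by edgeR, against 4.38% of all rows, 1 had an unadjusted p under 0.05, and DESeq2 called 1 and limma voom 0. That row was mir-5110, with a change of -4.89 (SE 1.60, adjusted p 0.0804), which passed the threshold in 5 of 12 fits with 1 library left out. Without E9.5 replicate 3 its change was -1.51 (adjusted p 0.683), and limma voom gave -2.29 (adjusted p 0.773). The change of miR-5110, -2.75 (SE 1.57, adjusted p 0.341), was -0.35 without E9.5 replicate 3. The changes of miR-5099 (0.18, SE 0.80) and mir-5099 (-0.13, SE 1.05) were smaller than their standard errors.

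From E10.5 to E11.5, mir-6240 fell to 1202 ± 513 CPM, which the fit gave as a log2 change of -2.75 (SE 0.50, adjusted p 0.00863). Its E10.5 and E11.5 libraries did not overlap, as was so for 3.68% of all rows in that direction. It was 1 of the 2 rows called among 571 (0.350%), and the only called row of the 8 of these loci. The call held in all 8 alternatives that kept all libraries and in all 12 fits that left out 1, with adjusted p values up to 0.0490. mir-6236 had 6215 ± 3011 CPM at E11.5, a change of -1.65 (SE 0.40, adjusted p 0.0813), which was not called although its libraries did not overlap either. Its adjusted p passed the threshold in 5 of the 8 alternatives and in 7 of the 12 fits that left out 1 library, among them 0.0235 with library size alone and 0.00732 with only these stages in the fit. The E11.5 libraries were also deeper, with totals of 417743 to 1103383 counts against 133435 to 267978 at E10.5. Unscaled counts of mir-6240 were 466 to 1471 at E11.5 and 1366 to 1793 at E10.5, which overlapped. Those of mir-6236 were 1313, 7298 and 7446 at E11.5, against 2468 to 5682 at E10.5. Depth and stage cannot be told apart for these changes in scaled level. miR-5099 and mir-5099 had changes of 1.45 (SE 0.81, adjusted p 0.503) and 1.48 (SE 1.06, adjusted p 0.648), with overlapping libraries. Without E11.5 replicate 1 these were 0.66 and -0.09, so that the direction of mir-5099 rested on that library. Without E10.5 replicate 1 they were 2.13 and 2.11.

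The E11.5 against E8.5 comparison set Pdx1-Cre cells of the trunk after E9.5 against Foxa2-CreER endoderm of whole embryos before it. Driver, region and stage cannot be told apart in it either. mir-6240 was lower at E11.5, with a fitted log2 change of -1.59 (SE 0.48, adjusted p 0.0317) and no overlap between libraries, which 21.2% of all rows showed in that direction. It was the only 1 of the 8 rows called, where 11.6% of all rows were. The call was lost with RLE size factors (adjusted p 0.0521), with DESeq2 (0.0694) and in 5 of the 12 fits that left out 1 library, those without any one of the 3 E8.5 libraries or without E11.5 replicate 1 or 2 (up to 0.109). mir-6236 had a change of -1.04 (SE 0.39, adjusted p 0.0914), which passed the threshold in 3 of the 8 alternatives and in 2 of the 12 fits with 1 library left out. Its libraries overlapped, with E11.5 replicate 3 at 0.885% of counts and E8.5 replicate 3 at 0.861%. The other 6 rows had changes from -1.37 (mir-5110, adjusted p 0.715) to 0.27 (mir-5121, adjusted p 0.953).

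**Figure D4:**
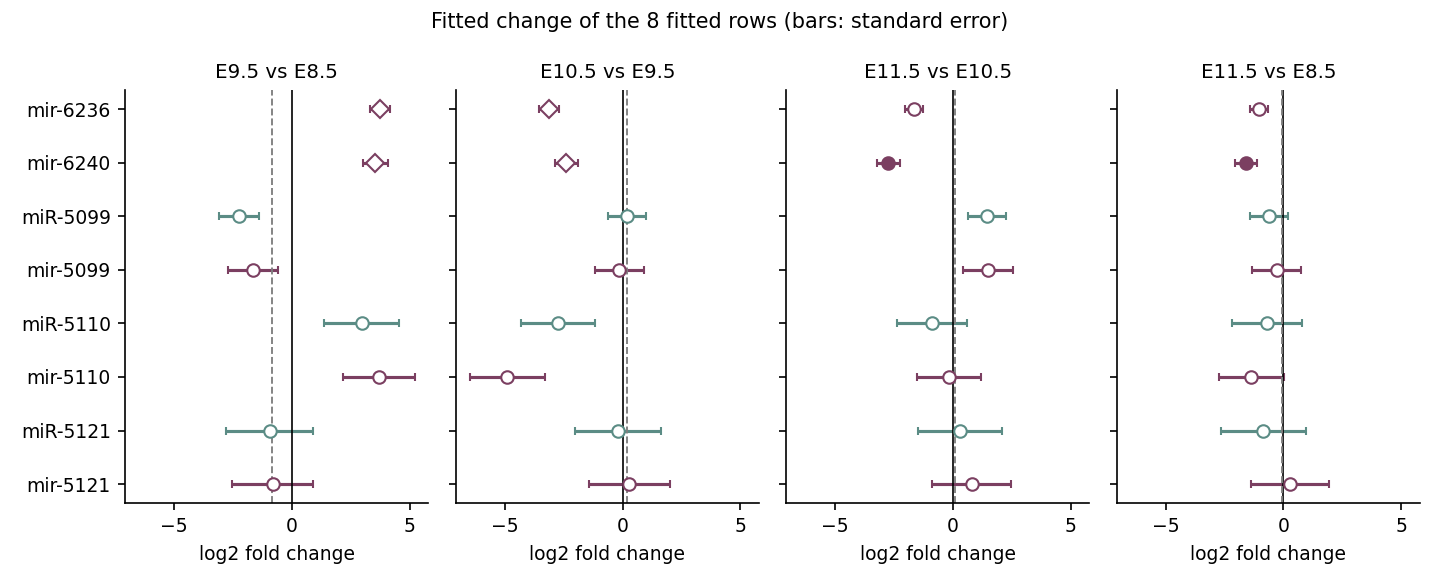
Points give the fitted log2 fold change of the 8 fitted rows in 4 comparisons (precursor rows in purple, mature rows in green), bars the standard error, filled circles an adjusted p under 0.05, open circles a higher one and diamonds changes given without a test. The dashed line is the median of all 571 rows. mir-6236 and mir-6240 changed by 3.74 and 3.54 at E9.5 and by -3.13 and -2.38 at E10.5, and mir-6240 alone was called in the 2 comparisons with E11.5.

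The rows whose pattern over the 12 libraries was most like that of mir-6236 were mature rows: let-7b-5p (Pearson r of log2(CPM + 1) 0.88), miR-27a-3p (0.82) and miR-21a-5p (0.82). For mir-6240 they were miR-27a-3p (0.82), miR-22-3p (0.80) and let-7b-5p (0.79). Of these, let-7b-5p had 12867 to 43991 CPM at E9.5 against 316 to 5647 in the other stages. miR-27a-3p had 587 to 10239 CPM at E9.5, which overlapped its 774 to 1791 CPM at E10.5. The values share library totals and scaling factors, and no p-value is given.

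Other rows with neighbouring catalogue numbers were few and low. There were 22, with 5252 counts in all, and 13 of them had fewer than 100 counts over the 12 libraries. The highest were miR-5112 (1553 counts), miR-5100 (954), mir-5108 (727) and mir-5119 (581). mir-5119 had 103, 16 and 208 counts at E9.5, so that replicate 2 held far fewer than replicates 1 and 3. Its mean share was 0.189% at E9.5, against 0.00716% at E8.5. The edgeR test called 0 of the 8 such rows that passed the filter in any of the 4 comparisons. The median log2 fold change of these 8 rows was 3.64 from E8.5 to E9.5, against -0.84 over all fitted rows. From E9.5 to E10.5 it was -3.48, against 0.17. The filter used the E9.5 counts as well, so that a row could pass it because it was high in those libraries. The medians therefore describe the 8 rows and not the 22, and whether the 22 share a pattern with mir-6236 was not tested.

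Markers of other cell types were checked in the same libraries. The summed share of 3 of 4 muscle miRNAs found in the table was 0.507% to 1.97% at E9.5, against 0.732% to 2.95% at E8.5 and 0.0232% to 0.375% at E10.5. At E8.5 and E9.5 nearly all of it was miR-1a-3p, with 15265, 6021 and 4345 counts, then 324, 595 and 1007. There were 0, 0 and 55 counts of miR-133a-3p at E9.5, and 1, 0 and 0 of miR-206-3p. Of the leukocyte list 3 of 5 were found, with 0.00125% to 0.196% at E9.5 and 0.0135% to 0.0422% at E8.5. Among them, miR-223-3p had 103 and 105 counts in E9.5 replicates 1 and 3 and at most 1 elsewhere. The others found were not high at E9.5. There miR-155-5p had 2, 0 and 1 counts, against 100, 163 and 39 at E8.5, and miR-142a-5p had 0, 1 and 0. Of the erythroid list 3 of 5 were found, with 0.00468% to 0.0787% at E9.5 and 0.0435% to 0.138% at the other stages, and miR-451a was at 0 in 7 libraries. The neural list stood at 0 to 0.0425% at E9.5 and at up to 0.0591% elsewhere. Pancreatic markers took 2.55% to 6.10% at E9.5 and 8.05% to 11.7% at E11.5, and hepatic miR-122 took 2.84% to 8.76% at E9.5. The part of these cells in the E9.5 values of mir-6236 and mir-6240 was not tested, and fewer cells, less RNA per cell and lower miRNA content of a library cannot be told apart from these counts.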

How the data were processed

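Small RNA of 12 libraries was sequenced by the authors, who trimmed the 3′ adapter and 4 random bases, kept reads of 17 to 35 or 36 bases per the file headers, aligned them with STAR in the COMPSRA pipeline on mm10 and deposited raw read counts per miRNA row, 1 column a library. Treatment of reads that map to several places is not given in the sources used here. Library totals ranged from 53996 to 1103383 counts, and intervals (95% Clopper-Pearson) cover counting error only. The rows and lists were chosen with earlier results of these data known.

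Rows were taken by name, and numbered hairpin copies of a name were summed for the precursor share of other loci. Stages were compared with edgeR 4.0.16 (quasi-likelihood test, TMM, filterByExpr with a minimum count of 10, all 12 libraries and 4 stages in 1 fit), called at an adjusted p under 0.05. A check on simulated counts was run first. It had to be passed only at a low spread and for large changes, so it does not measure the power in these data. Alternatives were RLE size factors, library size alone, sizes from mature rows, no filter, DESeq2 1.42.0, limma voom 3.58.1, only the stages compared, a replicate block and each library left out. Besides all matching rows, those named are the 3 rows most correlated with mir-6236 and mir-6240, the 4 highest rows with close numbers and the highest other precursor. Hairpins were folded with RNAfold 2.7.2. Sequences came from RefSeq and positions from GENCODE vM21 and RefSeq, on GRCm38.p6. Libraries with the same replicate number were not treated as pairs. Deviations from stage means correlated at -0.134 to 0.125 over 18 same-number pairs and at -0.152 to 0.137 over 36 different-number pairs. With 3 libraries a stage this cannot exclude a pairing.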

Additional observations from a re-analysis of the deposited data

How the results depend on the processing

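Under every scaling (RLE size factors, library size alone, sizes from mature rows) mir-6236 and mir-6240 were higher at E9.5 than at E8.5 and at E10.5, with log2 changes of 3.43 to 4.50 and 3.12 to 4.32 from E8.5 over 8 alternatives with all libraries. RLE moved the median of all rows in that comparison by 0.64, library size alone by -0.26 and mature-row sizes by 0.12. Without E9.5 replicate 3 the E9.5 to E10.5 change of mir-6240 was -1.41.

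The number of rows called from E8.5 to E9.5 (32, with 23 higher and 9 lower) was 50 with RLE (44 higher, 6 lower), 70 with DESeq2 and 17 with limma voom. It was 21 to 44 with 1 library left out, lowest without E8.5 replicate 2 or 3. From E9.5 to E10.5 (25, with 9 higher and 16 lower) it was 50 with no filter, 63 with DESeq2, 1 with voom, 11 with only those stages, and 7 (without E10.5 replicate 2) to 42 (without E9.5 replicate 2) with 1 left out, and RLE gave 1 higher and 23 lower. From E10.5 to E11.5 (2) it was 5 with no filter, 8 with DESeq2, 4 with only those stages, and 1 to 5 with 1 left out. Against E8.5, E11.5 (66) gave 147 with voom, 106 with only those stages, and 38 (without E8.5 replicate 3) to 80 with 1 left out. The cause of these differences was not tested, except that only the stages compared means fewer libraries. With a replicate block the counts were 26, 22, 3 and 61. The block also took mir-6236 past the threshold at E11.5, with an edgeR adjusted p of 0.00389 against E10.5 and 0.0146 against E8.5. No label says that the numbers pair libraries, and the block is given as an alternative only.

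The share of the 9 rows at E9.5, 18.8%, was 13.5% to 21.9% with 1 library left out, and the ratio of their counts to the counts of mature rows was 26.8 per 100. Of 638 values for single rows under all settings, 595 kept their side of the threshold or, for changes without a test, their size. A further 28 passed the threshold only in the alternative, 7 lost it and 8 moved. Rows that stayed uncalled count among the 595 whatever their size or sign. From E8.5 to E9.5, for example, the change of mir-5110 was 3.69 as reported and 0.27 with limma voom. No call changed sign.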
